A study of Rattus norvegicus with 42 samples.

Results

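The 4 genes described here are the positive arm and the REV-ERB arm of the circadian clock: Arntl, also called Bmal1 (ENSRNOG00000014448), Clock (ENSRNOG00000002175), Nr1d1 (ENSRNOG00000009329) and Nr1d2 (ENSRNOG00000046912). They were chosen by identifier, and all 4 were among the 13776 genes of the deposited tables. The symbols are those given with the selection, since the reference table used here paired 0 of the tables' identifiers with a symbol. Neat1, pituitary markers and the other clock genes were for that reason not analysed here, so neither the cell type nor the deletion was checked against its own RNA.

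The cells were GH4C1, a rat line of pituitary somatolactotrophs, which are cells that make growth hormone and prolactin, kept in HamF10 medium. The medium held fetal calf serum at 2% and horse serum at 15%. Untreated wild-type cells (WT) were compared with Neat1 -/- cells (KO), in which CRISPR-Cas9 had removed the long non-coding RNA Neat1. A change of medium, made to synchronise the cells, set time 0 for both, and total RNA was collected at 4 h steps, first after 10 h (T10) and last after 34 h (T34). The sample labels write these times as ZT10 to ZT34. There were 7 times, 2 genotypes and 3 libraries in each of the 14 groups, which gave 42 libraries. The number of clones behind the KO libraries, and whether replicates were separate cultures, are not given in the sources used here. P-values then measure the spread between these libraries, and a difference between clones cannot be told apart from the deletion.

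ARNTL and CLOCK proteins form a dimer that binds E-boxes and activates, among others, the genes of the REV-ERB receptors. NR1D1 (REV-ERB alpha) and NR1D2 (REV-ERB beta) in turn repress Arntl through response elements that they share with the activating ROR receptors. In most tissues this loop gives Nr1d1 a strong daily cycle, with Arntl near its opposite phase, while Clock RNA cycles weakly or not at all.

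The 250 bases before and 50 bases after the annotated start of each gene were read from RefSeq (build GRCr8), where all 4 genes had an entry, Arntl under the symbol Bmal1. They are shown for Arntl and the REV-ERB genes because these are the ends of the loop whose RNAs are compared below. Capitals mark matches to the E-box CACGTG, its variant CACGTT, the receptor half-site AGGTCA and the longer TAGGTNA, searched on both strands. TAGGTNA overlaps AGGTCA where its variable base is C, and it was added after the sequences had been seen. The Arntl window lies at chr1:176766078-176766377 (plus strand), the first and second Nr1d1 windows at chr10:84231763-84232062 and chr10:84229405-84229704 (minus strand), and the Nr1d2 window at chr15:9954784-9955083 (plus strand).
Arntl: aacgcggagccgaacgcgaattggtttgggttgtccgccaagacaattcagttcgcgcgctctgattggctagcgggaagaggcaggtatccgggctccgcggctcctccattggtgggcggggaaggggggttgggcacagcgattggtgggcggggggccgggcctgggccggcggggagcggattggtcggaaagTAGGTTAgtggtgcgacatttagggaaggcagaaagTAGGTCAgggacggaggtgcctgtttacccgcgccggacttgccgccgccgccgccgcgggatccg
Nr1d1, first start: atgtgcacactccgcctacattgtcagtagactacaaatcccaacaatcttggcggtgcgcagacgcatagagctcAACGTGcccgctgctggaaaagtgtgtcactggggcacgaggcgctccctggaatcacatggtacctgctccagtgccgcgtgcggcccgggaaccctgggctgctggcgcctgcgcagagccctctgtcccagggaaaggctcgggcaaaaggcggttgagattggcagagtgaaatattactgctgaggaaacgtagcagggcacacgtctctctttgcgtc
Nr1d1, second start: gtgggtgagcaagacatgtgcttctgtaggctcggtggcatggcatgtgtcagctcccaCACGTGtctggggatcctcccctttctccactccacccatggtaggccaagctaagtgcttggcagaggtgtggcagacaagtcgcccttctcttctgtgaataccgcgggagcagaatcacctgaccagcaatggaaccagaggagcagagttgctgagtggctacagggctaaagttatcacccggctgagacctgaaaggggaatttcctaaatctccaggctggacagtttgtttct
Nr1d2: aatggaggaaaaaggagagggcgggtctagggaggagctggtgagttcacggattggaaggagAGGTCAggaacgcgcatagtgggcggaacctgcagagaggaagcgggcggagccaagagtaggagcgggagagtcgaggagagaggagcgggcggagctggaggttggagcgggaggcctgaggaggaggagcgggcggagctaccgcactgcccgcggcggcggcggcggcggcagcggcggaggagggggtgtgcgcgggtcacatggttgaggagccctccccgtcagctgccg

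The Arntl window held TAGGTNA at 2 places, 52 and 16 bases before the start, and the second of these contained the only AGGTCA of the window. At least 1 TAGGTNA was found in 8.7% of the 33469 promoter windows of the table, and 2 or more in 0.547%. The Nr1d1 windows held CACGTT on the reverse strand, 174 bases before the first start, and CACGTG 191 bases before the second. These motifs were found in 4.83% and 6.42% of all windows. The Nr1d2 window held AGGTCA 187 bases before its start, a motif found in 16.2% of windows. The D-box TTATGTAA, found in 0.893% of windows, was in none of the 4 genes' windows, and the 2 Clock windows held none of the motifs. A match describes letters only, and no binding was measured here.

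Levels are given as CPM, a gene's counts relative to the TMM-scaled total of its library, and serve to compare one gene between libraries. Gene lengths were not used, so levels of different genes are not compared. The library totals were 34.5 to 68.8 M counts in WT and 45.9 to 60.5 M counts in KO. The count of a member in a library ranged from 196 to 7167, the lowest being that of Nr1d1 in WT. WT T34 replicate 1 stood apart from all other libraries. Its correlation of log2 CPM with its 2 replicates was 0.919 and 0.935, against 0.987 to 0.995 in the other 40 pairs of replicates. KO T30 replicate 1 also lay away from its replicates, at 1.48 on the second principal component against 27.0 and 24.1. Results use all 42 libraries, and a second value leaves out WT T34 replicate 1 where that moves them. In bulk RNA, fewer cells that express a gene and less RNA per cell cannot be told apart.

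**Figure D1:**
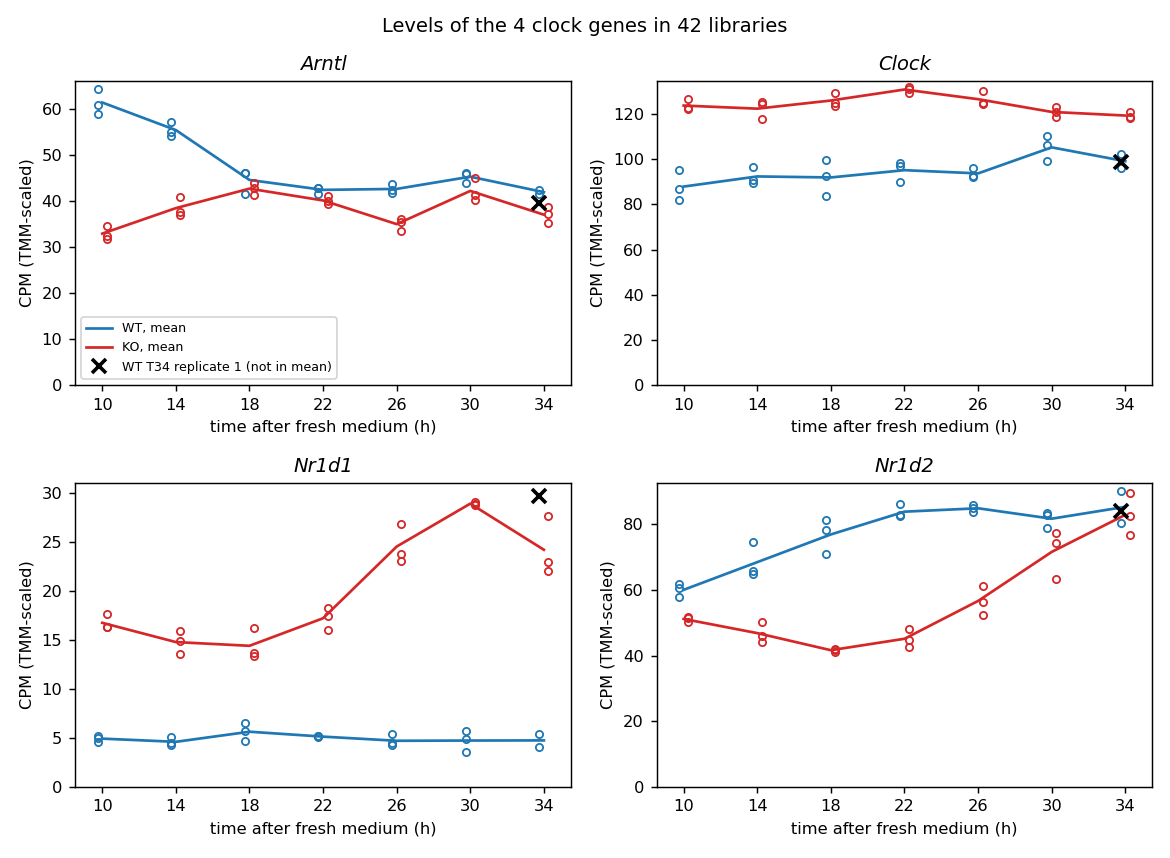
Levels of Arntl, Clock, Nr1d1 and Nr1d2 in CPM against hours after fresh medium. Open circles are libraries (3 per group), lines are group means in WT (blue) and KO (red), and the cross is WT T34 replicate 1, left out of the mean: it sits at 29.8 CPM for Nr1d1, while the other 20 WT libraries lie between 3.55 and 6.50 CPM.

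Averaged over the 7 times, Nr1d1 and Clock were higher and Arntl and Nr1d2 were lower in KO than in WT. Each member passed the test of KO against WT at an adjusted p under 0.05 (edgeR quasi-likelihood test, Benjamini-Hochberg over 13776 genes). This test called 88.1% of all genes, 43.4% as higher and 44.7% as lower in KO, so 4 of 4 members called is close to this background. With WT T34 replicate 1 left out it called 90.7%. The ranges of the 21 WT and 21 KO libraries did not overlap for 1 of the 4 members, Clock, and for 17.4% of all genes. Without WT T34 replicate 1 they did not overlap for Clock and Nr1d1, and for 41.3% of all genes.

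Nr1d1, the REV-ERB repressor with the stronger daily cycle in most tissues, had the largest change of the 4. In WT it ranged from 3.55 to 29.8 CPM with a median of 5.04, and in KO from 13.4 to 29.1 with a median of 17.6. The highest WT value was that of WT T34 replicate 1, and it was the only WT library that reached the KO range. The log2 fold change was 1.78 (SE 0.14, adjusted p 9.77e-14), a 3.43-fold difference. Without WT T34 replicate 1 it was 1.99 (SE 0.05, adjusted p 2.63e-28), or 3.97-fold.

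Nr1d2, its paralog, differed in the other direction. Its WT range of 57.7 to 90.2 CPM (median 81.4) overlapped the KO range of 41.1 to 89.5 CPM (median 51.5). The log2 fold change was -0.48 (SE 0.03, adjusted p 2.58e-17). The REV-ERB genes thus shifted in opposite directions.

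Arntl had 39.5 to 64.5 CPM in WT (median 43.9) and 31.7 to 45.0 CPM in KO (median 38.7), and KO differed from WT by -0.30 in log2 (SE 0.02, adjusted p 2.97e-15). Clock, its partner, had 81.8 to 110.1 CPM in WT (median 96.0) and 117.7 to 132.1 CPM in KO (median 124.2). With TMM scaling every KO library was above every WT library, and the log2 fold change was 0.39 (SE 0.02, adjusted p 4.80e-18).

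These sizes rest on the scaling. Scaling by library totals in place of TMM moved the median log2 fold change of all genes from -0.01 to -0.31, and the members moved with it, to 1.47 for Nr1d1, 0.09 for Clock, -0.60 for Arntl and -0.78 for Nr1d2. All 4 kept their sign and call over all times, but Clock then lost its call at T14 (0.10), T26 (0.12), T34 (0.0055) and T30, where it stood at -0.07 (adjusted p 0.260) against 0.20 with TMM. The Clock ranges then overlapped, at 90.2 to 120.3 CPM of the unscaled library totals in WT and 106.2 to 118.5 in KO.

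**Figure D2:**
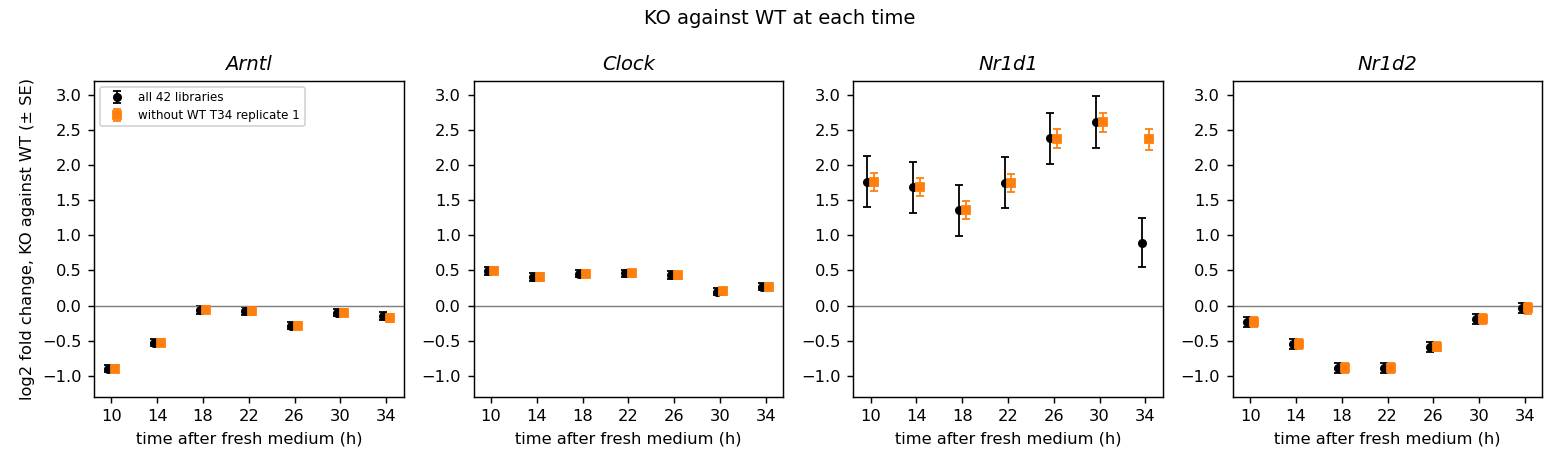
Log2 fold change of KO against WT (± SE from the fit) at each time, with all 42 libraries (black) and without WT T34 replicate 1 (orange). Arntl is lowest at T10, Nr1d2 at T18 and T22, Clock stays above 0 at all 7 times with TMM scaling, and Nr1d1 at T34 moves from 0.89 to 2.37 when that library is left out.

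An interaction term asked whether the gap between the genotypes changed with time. This term was called for Arntl (adjusted p 5.06e-10), Nr1d2 (2.66e-08) and Clock (0.0132) but not for Nr1d1 (0.0703), against 39.3% of all genes called. Without WT T34 replicate 1 it was called for all 4 members, Nr1d1 with an adjusted p of 2.03e-06, and for 54% of all genes. For Clock the call was lost with library totals (adjusted p 0.0777) and in 4 of the 6 fits that left out 1 replicate of a genotype, with adjusted p-values up to 0.182.

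Arntl differed most at the first times. At T10 the log2 fold change was -0.90 (SE 0.05, adjusted p 2.69e-15) and at T14 -0.53 (SE 0.05, adjusted p 5.14e-10). At T18, T22 and T30 it was -0.06, -0.08 and -0.10 and was not called (adjusted p 0.304, 0.178 and 0.0862). With library totals those values were -0.36, -0.39 and -0.37, and all 3 were called. At T26 it was -0.29 and at T34 -0.15, both called. The T34 call was lost without WT replicate 2 or 3 or KO replicate 1 or 2 (adjusted p 0.0510 to 0.125) and in a fit of the 6 T34 libraries alone (0.327).

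Nr1d2 showed its widest difference later. Its log2 fold change was -0.23 at T10, -0.89 at T18 (SE 0.07, adjusted p 3.59e-12), -0.89 at T22 (SE 0.07, adjusted p 2.69e-12), -0.19 at T30 and -0.03 at T34 (SE 0.07). All were called but the last, which had an adjusted p of 0.696. With library totals in place of TMM, T34 was called too, at -0.30 (adjusted p 0.00100). The call at T30 was lost without KO T30 replicate 1, where the value was -0.11 (adjusted p 0.180), and without WT replicate 2 (-0.19, adjusted p 0.0513).

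Nr1d1 was called as higher in KO at all 7 times. Between T10 and T30 its log2 fold changes ran from 1.36 at T18 (SE 0.36) to 2.61 at T30 (SE 0.37). At T34 it was 0.89 (SE 0.35, adjusted p 0.0273), and without WT T34 replicate 1 it was 2.37 (SE 0.15, adjusted p 1.75e-15). With that library kept, the T34 call was lost with library totals (0.58, adjusted p 0.156) and in a fit of the 6 T34 libraries alone (adjusted p 0.438). It was also lost without WT replicate 2 or 3 or any KO replicate (0.48 to 0.96, adjusted p 0.0667 to 0.227). With a replicate block in each genotype it was lost too (0.78, adjusted p 0.0739), but that contrast compares only the fitted levels of replicate 1. With TMM, Clock was called as higher at all 7 times, from 0.20 at T30 to 0.49 at T10. The Clock call at T34 was lost in a fit of the 6 T34 libraries alone (0.27, adjusted p 0.0820). Of all genes, 69.6% were called at T10, while T14 gave 70.9%, T18 68.9%, T22 70.5%, T26 70.3% and T30 73%. The share for T34 was 60.7%, or 75.6% without WT T34 replicate 1.

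The course over time was then followed within each genotype. Over the 7 times, all 4 members were called as changing in WT, against 37.5% of all genes, and Arntl and Nr1d2 in KO, against 36.8%. Without WT T34 replicate 1, Arntl, Nr1d2 and Clock were called in WT (44.1% of all genes) and Arntl, Nr1d1 and Nr1d2 in KO (60.6%). Both genotypes enter 1 fit with a common spread per gene, so leaving out a WT library moves KO calls too.

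Arntl in WT was highest at the start. Its 3 libraries had 58.9, 60.9 and 64.5 CPM at T10, 57.1, 54.2 and 55.0 at T14, and 46.0, 41.6 and 46.2 at T18. They had 42.8, 41.6 and 43.0 at T22, 41.8, 42.5 and 43.7 at T26, 43.9, 46.2 and 45.9 at T30, and 39.5, 41.6 and 42.3 at T34. All 6 libraries of T10 and T14 lay above all 15 later ones. Arntl fell by 0.53 on the log2 scale from T10 to T22 (SE 0.05, adjusted p 8.87e-09) and stood at -0.05 from T22 to T34 (SE 0.05, adjusted p 0.552). T34 remained below T10 by a log2 change of -0.58 (SE 0.05, adjusted p 8.13e-10), so the level of T10 was not reached again 24 h later.

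Arntl in KO took another course. The libraries had 32.5, 34.6 and 31.7 CPM at T10, 36.9, 37.6 and 40.9 at T14, and 42.9, 41.3 and 43.9 at T18. They had 39.3, 41.04 and 40.1 at T22, 33.6, 35.4 and 36.0 at T26, 40.3, 41.3 and 45.0 at T30, and 35.3, 37.1 and 38.7 at T34. The means of T18 and T30 were the highest, with all libraries of T26 below those of both, and T10 was the lowest. From T10 to T22 Arntl rose by 0.29 (SE 0.05, adjusted p 0.00234), opposite to WT. This call was lost without KO replicate 3 (log2 change 0.26, adjusted p 0.0991), where 0.254% of all genes were called. T22 against T10 was called for 13.2% of all genes in WT and for 1.33% in KO.

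Clock moved little. Its WT group means ran from 87.9 ± 6.68 CPM at T10 to 105.2 ± 5.46 at T30 (SD, n = 3 each), with an adjusted p over the 7 times of 0.00633, which became 0.153 without WT replicate 2. In KO they ran from 119.3 ± 1.34 CPM at T34 to 130.8 ± 1.45 at T22 (SD, n = 3 each), and the change over time was not called (adjusted p 0.406).

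Nr1d1 stayed flat in WT apart from a single library. The 3 libraries had 4.60, 5.19 and 4.98 CPM at T10, 4.22, 4.45 and 5.11 at T14, 6.50, 5.66 and 4.72 at T18, and 5.04, 5.17 and 5.16 at T22. They had 4.24, 5.36 and 4.50 at T26, 5.73, 3.55 and 4.90 at T30, and 29.8, 4.05 and 5.42 at T34. Replicates 2 and 3 of T34 lay within the range of the earlier times, and replicate 1 was the highest of all 42 libraries. With all libraries the change over time in WT had an adjusted p of 0.00315, and without that library 0.445. T34 against T10 turned from 1.40 (SE 0.36, adjusted p 0.00283) to -0.07 (SE 0.15, adjusted p 0.750), and T34 against T22 from 1.35 (adjusted p 0.00756) to -0.13 (adjusted p 0.626).

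In KO, Nr1d1 was lowest at T14 and T18 and highest at T30. The libraries had 16.3, 17.6 and 16.3 CPM at T10, 15.9, 14.9 and 13.5 at T14, 13.4, 16.2 and 13.6 at T18, and 18.3, 17.4 and 16.0 at T22. They had 23.7, 23.1 and 26.8 at T26, 28.8, 29.1 and 28.9 at T30, and 27.6, 22.02 and 23.0 at T34. All 9 libraries from T26 onwards lay above all 12 earlier ones, and the mean of T30 was 2.01 times that of T18. The change over the 7 times in KO had an adjusted p of 0.0744, which became 3.56e-09 once WT T34 replicate 1 was left out. T34 against T22 was 0.49 in both fits, with an SE of 0.35 and 0.12 and an adjusted p of 0.281 and 9.56e-04.

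Nr1d2 rose early in WT and late in KO. In WT the libraries had 60.5, 57.7 and 61.9 CPM at T10, 74.7, 65.8 and 64.95 at T14, 70.9, 78.4 and 81.4 at T18, and 82.7, 86.1 and 82.9 at T22. They then kept between 79.0 and 90.2 CPM up to T34. The rise from T10 to T22 was 0.48 (SE 0.07, adjusted p 8.73e-06), and T34 against T22 was 0.02 (SE 0.07, adjusted p 0.875).

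In KO, Nr1d2 had 51.8, 50.2 and 51.5 CPM at T10, 45.9, 50.4 and 44.3 at T14, 41.1, 42.1 and 41.8 at T18, and 42.7, 48.0 and 44.7 at T22. It had 56.3, 52.4 and 61.3 at T26, 63.2, 77.3 and 74.3 at T30, and 76.7, 89.5 and 82.6 at T34. KO replicate 1 at T30, the library that lay apart, was the lowest of its group. From T22 to T34 Nr1d2 rose by 0.88 (SE 0.07, adjusted p 9.10e-11), and the 3 libraries of T34 lay within 76.7 to 89.5 CPM, overlapping those of WT. Scaled by library totals the T34 libraries did not overlap, at 69.6, 84.8 and 77.1 CPM in KO against 98.7, 86.7 and 99.3 in WT.

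T34 against T22 was called for 26.6% of all genes in WT and 36.1% in KO, and for 15.3% and 53.4% without WT T34 replicate 1. T34 against T10 was called in WT for all 4 members (37.9% of all genes) and in KO for Arntl, at 0.17 (adjusted p 0.0135), and Nr1d2, at 0.70 (adjusted p 4.36e-09), against 34% of all genes. The Arntl call in KO was lost without KO replicate 3 (0.11, adjusted p 0.246). Without WT T34 replicate 1, the calls were Arntl, Clock and Nr1d2 in WT (34.3% of all genes) and Arntl, Nr1d1 and Nr1d2 in KO (50.6%). In the fits of all groups, levels that had not returned to those of T10 after 24 h were thus found in both genotypes. A fit of only the 6 WT libraries compared, which include WT T34 replicate 1, lost the WT calls of all 4 members. The adjusted p-values were 0.110 for Arntl, 0.145 for Nr1d2, 0.510 for Clock and 0.458 for Nr1d1. The log2 changes there were -0.59, 0.49, 0.16 and 1.40. In KO, a fit of only the 6 libraries compared gained a call for Nr1d1, at 0.55 (adjusted p 2.73e-04). The share of all genes called by these fits is not given here. The WT call of Clock was also lost without WT replicate 1 (adjusted p 0.0723) or 2 (0.0588).

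**Figure D3:**
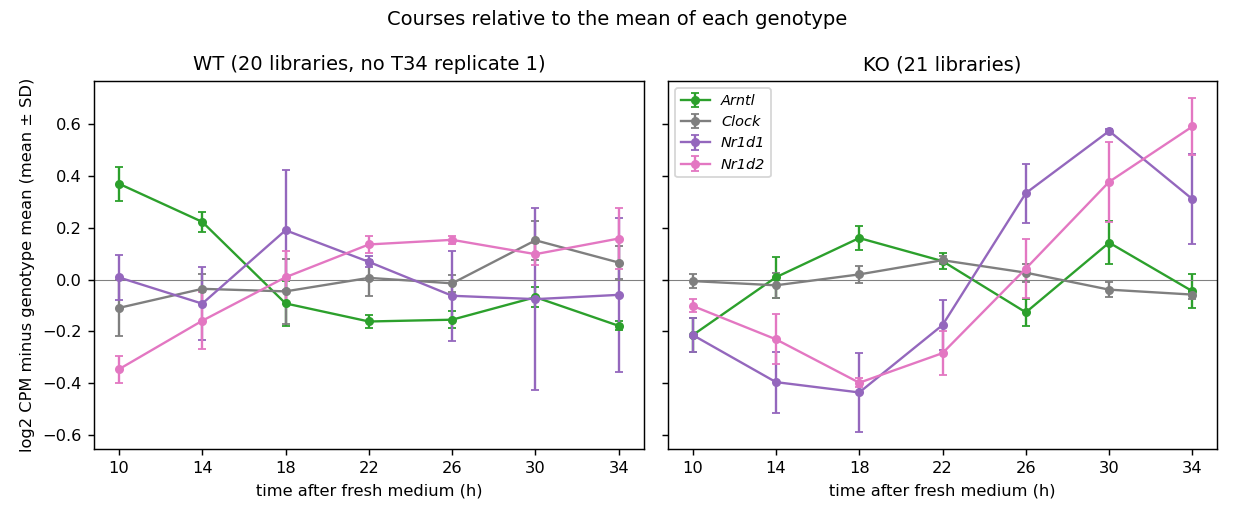
Course of each member as log2 CPM minus its mean in the genotype, against hours after fresh medium; points are means and bars the SD of the 3 libraries of a time (2 for WT at T34, replicate 1 left out). In WT Arntl falls while Nr1d2 climbs up to T22 and Nr1d1 has no steady course, whereas in KO both REV-ERB genes are lowest at T18 and climb to T30 or T34.

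A 24 h cosinor, a cosine and a sine term of that period, was fitted to each genotype. The amplitude is the log2 height of the fitted peak above the fitted mean. The series covered 24 h, so no cycle was seen again, and a one-way drift also enters this fit.

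With all libraries, 0 of 4 members were called in WT, against 1.98% of all genes. Arntl had an amplitude of 0.18 (SE 0.05) with a peak at 12.3 h (SE 1.16) and an adjusted p of 0.138. Nr1d2 had 0.16 (SE 0.05) with a peak at 25.1 h (SE 1.19) and an adjusted p of 0.180. Their unadjusted p-values were 0.00832 and 0.0150, the only 2 of the 4 under 0.05. DESeq2 also called 0 of 4 members (adjusted p 0.0643 for Arntl and 0.115 for Nr1d2), against 5.72% of all genes.

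With WT T34 replicate 1 left out, both were called in WT, against 14% of all genes. The Arntl amplitude was then 0.21 (SE 0.05, peak 11.98 h, adjusted p 0.0114), larger than that of 90.1% of the other genes. That of Nr1d2 was 0.17 (SE 0.04, peak 24.8 h, adjusted p 0.0331). Their fitted peaks lay nearly opposite in the 24 h period. Nr1d1 in WT had an amplitude of 0.37 (SE 0.21, adjusted p 0.587), and without that library of 0.09 (SE 0.06, adjusted p 0.509). Clock had 0.06 (SE 0.03) in both fits and was called in neither.

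In KO, Nr1d1, Nr1d2 and Clock were called, against 34.3% of all genes. Nr1d1 had an amplitude of 0.52 (SE 0.06) with a peak at 28.9 h (SE 0.40) and an adjusted p of 5.79e-04, and its amplitude exceeded that of 97.8% of the other genes. Nr1d2 had 0.42 (SE 0.07) with a peak at 30.9 h (SE 0.59) and an adjusted p of 0.00188. Clock had 0.05 (SE 0.01), below the median of 0.11 over all genes, with an adjusted p of 0.0282. The Clock call was lost without each of the 3 KO replicates and with library totals (adjusted p 0.0828). Arntl in KO had 0.08 (SE 0.04) and was not called (adjusted p 0.227). The Nr1d1 call was lost without KO replicate 3 (adjusted p 0.0730), with an amplitude of 0.47. That of Nr1d2 was lost without KO replicate 2 or 3 (0.0508 and 0.0844), with amplitudes of 0.42 and 0.40. Those fits called few genes of any kind, 34 of 13776 (0.247%) without replicate 2 and 0 without replicate 3, where 3775 genes had an unadjusted p under 0.05.

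**Figure D4:**
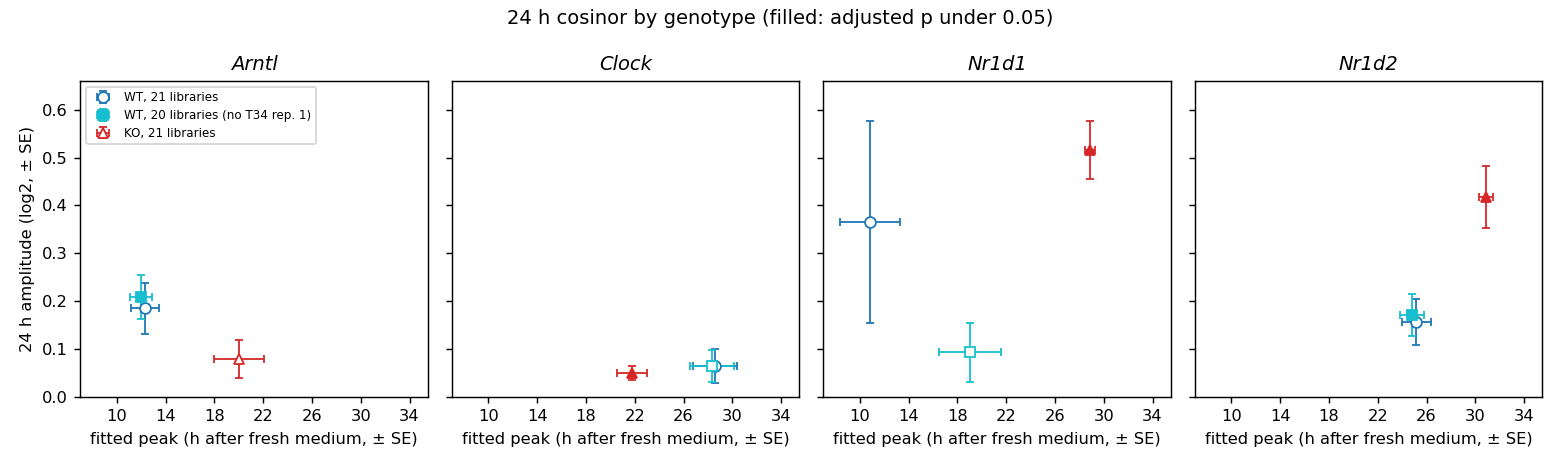
Amplitude of the 24 h cosinor (log2, ± SE) against its fitted peak (hours after fresh medium, ± SE) in WT with 21 libraries (blue), in WT without T34 replicate 1 (cyan) and in KO (red), filled where the adjusted p is under 0.05. Nr1d1 and Nr1d2 in KO lie highest, at 0.52 and 0.42, and Nr1d1 in WT falls from 0.37 to 0.09 without that library.

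Rhythms were then compared directly, by a test of whether the cosine and sine terms differed between the genotypes. This test called Nr1d2 (adjusted p 0.00163) and Arntl (0.0441), against 13.1% of all genes, but not Nr1d1 (0.181) or Clock (0.173). When WT T34 replicate 1 was left out, it called Nr1d1 (5.24e-05), Nr1d2 (3.71e-04) and Arntl (0.00676), and 27.4% of all genes, with Clock at 0.132. With all libraries, the Arntl call was lost with library totals (0.0681) and when any replicate of a genotype was left out (0.0559 to 0.169), fits that called 3.53% to 15.9% of all genes.

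How the members varied together was measured over the 21 libraries of each genotype, as 8 relations adjusted together. In WT, Arntl and Nr1d2 ran opposite, with Pearson's r of -0.901 (permutation p 2e-05, adjusted 8e-05) and Spearman's rho of -0.747 (permutation p 2.3e-04, adjusted 9.2e-04). Without the 2 libraries farthest from the median of Arntl, r was -0.851, and without WT T34 replicate 1 it was -0.902. In KO this pair had r of -0.110 and rho of -0.296 (permutation p 0.631 and 0.191, adjusted 0.721 and 0.382). The difference between the genotypes was not tested.

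In KO, Nr1d1 and Nr1d2 ran together, with r of 0.808 (permutation p 1e-05, the smallest these permutations can give, adjusted 8e-05) and rho of 0.810 (permutation p 2e-05, adjusted 1.6e-04). Without the 2 libraries farthest from the median of Nr1d1, r was 0.758. In WT this pair had r of 0.132 and rho of 0.147 (permutation p 0.600 and 0.526, adjusted 0.721 and 0.573). Arntl and Nr1d1, a pair that the loop also joins, had r of -0.293 in WT and -0.0711 in KO. Their rho was -0.316 and -0.130, and the adjusted permutation p-values were 0.382 to 0.757. Arntl and Clock had r of -0.387 in WT and 0.172 in KO, with adjusted p-values of 0.222 and 0.721. The libraries share the 7 times, so these values largely describe the courses given above. Single libraries were permuted freely, as if those of the same time were independent. The permutation p-values may for that reason be too small.

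Finally, the genes whose mean level reached 1 CPM were ranked by likeness to each member, as the correlation over 41 libraries of log2 CPM centred on each genotype, without WT T34 replicate 1. Over these libraries, Nr1d2 stood at rank 363 of 13069 genes for likeness to Nr1d1 (r 0.627), and over all 42 at rank 3182 (r 0.442). The gene most like Nr1d1 was ENSRNOG00000013017 (r 0.842, and 0.915 over 42 libraries), and the gene most like Nr1d2 was ENSRNOG00000006334 (r 0.941, and 0.899). For Arntl it was ENSRNOG00000006681 (r 0.831, and 0.828) and for Clock ENSRNOG00000007419 (r 0.829, and 0.748). An r over 0.8 was shared by 256 genes with Nr1d2, 7 with Nr1d1, 4 with Clock and 1 with Arntl. These are descriptions without a test, and the files do not pair the identifiers with symbols.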

How the data were processed

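Libraries were strand-specific and read from both ends (150 bp, Illumina HiSeq 2500), per the labels' protocols. The authors deposited a table of raw counts per gene for each genotype, made with featureCounts per the submitters' processing notes. The aligner, genome build, annotation release, strand setting and rule for keeping genes are not given in the sources used here, and reads of overlapping genes may be split.

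From these counts, R 4.3.3 with edgeR 4.0.16 (TMM, filterByExpr, which removed 0 of 13776 genes, quasi-likelihood F tests, Benjamini-Hochberg over all genes, calls at an adjusted p under 0.05) fitted a mean for each of the 14 groups to 42 libraries. It also fitted a 24 h cosinor to each genotype and, for the rhythm difference, to both. The SE of a fold change comes from its F value, and those of amplitude and peak from the delta method. Scripts were tested on simulated data. Correlations used 100000 permutations (SciPy 1.17.1) of log2 CPM with a prior count of 1.

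No pair of replicates agreed within sampling noise (chi-square per degree of freedom at least 5.48). The members and lists were chosen with earlier results of these data known. The contrasts of T22 with T10 and T34 with T22 were added after the data were seen. Besides the members, the rule named the genes most like each of them, and because they lack symbols 1 per member is printed. The alternatives were other scalings, filters on low counts, DESeq2 1.42.0, a replicate block, left-out replicates or libraries, and, for rhythms, other periods, a linear term, no T34 libraries and a joint fit.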

Additional observations from a re-analysis of the deposited data

Results flagged for a closer look

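For 3 members, an interaction term of the edgeR fit showed that the genotype effect was not the same at the 7 times. These were Arntl (adjusted p 5.06e-10), Nr1d2 (2.66e-08) and Clock (0.0132), against 39.3% of all genes called. The 24 h cosinor terms differed between the genotypes for Nr1d2 (0.00163) and Arntl (0.0441), against 13.1% of all genes called. The Arntl call was lost with library totals (0.0681), with a replicate block (0.0604) and in all 6 fits that left out 1 replicate of a genotype (0.0559 to 0.169), and Arntl had no called cosinor in either genotype with all libraries (0.138 in WT and 0.227 in KO). Without WT T34 replicate 1, Nr1d1 also passed both tests (the interaction moved from 0.0703 to 2.03e-06 and the cosinor terms from 0.181 to 5.24e-05). The interaction was then called for 54% of all genes and the difference in cosinor terms for 27.4%. The Arntl log2 fold change of KO against WT was -0.90 at T10 and -0.06 at T18, and that of Nr1d2 was -0.89 at T22 and -0.03 at T34. With library totals, Arntl at T18 stood at -0.36 (adjusted p 1.26e-06) and Nr1d2 at T34 at -0.30 (adjusted p 0.00100). For Clock the values ran from 0.20 to 0.49, and its call was lost in 4 of the 6 fits that left out 1 replicate of a genotype.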

How the results depend on the processing

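Of 1291 values under alternatives for 88 results, 1181 kept the side of the threshold, 65 lost a call, 40 gained one and 5 reversed. A reversal is a change of sign of a fold change or correlation that was called in either fit. The main filter on low counts removed 0 genes. The alternative without that filter therefore repeats the main fit, and its values in this tally could not change. KO against WT over all times kept its call in every alternative run, with log2 fold changes of 1.47 to 1.99 for Nr1d1, 0.09 to 0.41 for Clock, -0.60 to -0.28 for Arntl and -0.78 to -0.45 for Nr1d2. The 5 reversals were Clock at T30 with library totals (-0.069) and Nr1d1 in WT without replicate 1 at all times or at T34 alone, for T34 against T10 (-0.13 and -0.07) and against T22 (-0.15 and -0.13). Leave-one-out values reached 1.87 for Nr1d1 T34 against T10 and 1.78 against T22. The values that follow are adjusted p-values, and where no value shows the cause of a change, the cause was not tested.

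Library totals ended the calls of the Clock interaction (0.0777), the Clock cosinor in KO (0.0828) and the Arntl rhythm difference (0.0681). DESeq2 called the Nr1d1 interaction (0.0232) and its change over time in KO (0.0269). A linear term in time beside the cosinor gave calls for Arntl in WT (9.75e-04) and KO (0.0375), Nr1d2 in WT (0.0114) and the Nr1d1 rhythm difference (0.0402). It also moved the fitted peaks in WT, on a cycle of 24 h. The Arntl peak went from 12.3 h to 32.3 h, which is earlier by the shorter way round the cycle. Its amplitude was 0.15 in place of 0.18. The Nr1d2 peak went from 25.1 h to 21.1 h, with an amplitude of 0.12 in place of 0.16. The Arntl amplitude in KO was 0.13 in place of 0.08. A period of 28 h called Arntl (0.0073) and Nr1d2 (0.0073) in WT and the Clock rhythm difference (0.0332). Without the T34 libraries, Arntl (3.31e-05) and Nr1d2 (4.85e-04) in WT and the Nr1d1 rhythm difference (1.31e-05) were called, and Clock in KO was not (0.115). A joint fit of both genotypes called Arntl in WT (0.0395) but not Clock (0.269) or Nr1d1 (0.0715) in KO. A period of 20 h ended the KO calls of Clock (0.0854), Nr1d1 (0.107) and Nr1d2 (0.1165) and the rhythm differences of Arntl (0.164) and Nr1d2 (0.109), but it called only 0.479% of all genes in KO and 0.581% for the difference. A period of 12 h, added after the data were seen, ended the same 5 calls (0.957, 0.861, 0.775, 0.734 and 0.868) and called 0 genes, with 1175 in KO and 932 for the difference at an unadjusted p under 0.05. Scaling within the genotype, also added, ended that of Clock in KO (0.0521).

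With replicates or single libraries left out, the interaction ran from 0.00126 to 0.182 for Clock and from 2.03e-06 to 0.381 for Nr1d1. The change over time in WT ran from 9.96e-04 to 0.153 for Clock and from 2.14e-04 to 0.561 for Nr1d1, and in KO from 3.56e-09 to 0.616 for Nr1d1. The cosinor in WT ran from 0.0114 to 0.761 for Arntl and from 0.0331 to 0.745 for Nr1d2. In KO it ran from 0.0309 to 0.277 for Clock, 3.37e-04 to 0.0730 for Nr1d1 and 0.00146 to 0.0844 for Nr1d2. The rhythm difference ran from 0.00676 to 0.169 for Arntl and from 5.24e-05 to 0.454 for Nr1d1. Those fits hold fewer libraries, so a lost call alone does not show a smaller effect. For Nr1d1 in WT the effect itself changed. Its log2 change of T34 against T10 went from 1.40 to -0.13 without WT replicate 1.

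Whether replicate numbers pair the libraries was not tested. The deviations of libraries with the same number correlated at -0.266 to 0.283. Their mean correlation was 0.0095, against -0.0049 for other numbers. With 3 numbers to choose from, 22 of 42 libraries correlated best with their own number. These values pool both genotypes. A replicate block left the lead calls as they were except for the Arntl rhythm difference (0.0604).

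The lowest member count, 196, was that of Nr1d1 in WT, so counting error is largest there. The 24 h covered allow no check that a cycle repeats.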

Other observations

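The KO course of Arntl had its highest means at T18 and T30, 12 h apart, with 42.7 ± 1.34 and 42.2 ± 2.45 CPM, and 35.0 ± 1.26 CPM at T26 between them (SD, n = 3 each). A cosinor with a period of 12 h, chosen after these values were seen, gave Arntl in KO an amplitude of 0.14 (SE 0.03) and a first peak at 17.99 h, but an adjusted p of 0.544. This period was called by edgeR for 0 genes in KO, where 1175 had an unadjusted p under 0.05, and for 0 genes in WT, where 531 did.

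WT T34 replicate 1 was not KO-like in all members. Its Nr1d1 level of 29.8 CPM was above the 27.6, 22.02 and 23.0 CPM of KO at T34. With TMM scaling, its Clock level of 98.6 CPM lay between the 96.0 and 102.1 CPM of its replicates and below every KO library. Its Nr1d2 level of 84.1 CPM lay within the ranges of both genotypes at T34, and its Arntl level of 39.5 CPM was the lowest of the 21 WT libraries. Scaled by library totals, its Clock level of 115.7 CPM lay above the 103.4 and 112.4 CPM of its replicates. That level was within the KO range of 106.2 to 118.5 CPM. Its Nr1d2 level was then 98.7 CPM, above the 69.6 to 84.8 CPM of KO at T34. Its Arntl level was 46.3 CPM, above the 44.8 CPM of WT T34 replicate 2.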
